A study of Rattus norvegicus with 18 samples.

Results

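The 35 genes described here were chosen by their counts in visceral white adipose tissue (vWAT) of spontaneously hypertensive rats (SHRs). In each of them, the lowest of 6 SHRs given trimethylamine N-oxide (TMAO) lay above the highest of 6 SHRs on tap water. They came from 32883 genes in the table, of which 11970 had a mean of at least 1 CPM (the count of the gene scaled to a library total of 1000000) over the 12 SHRs and lay outside chromosomes MT and 20, which the rule left out. The 35 genes were 0.292% of these 11970. The opposite pattern, with every SHR-TMAO rat below every SHR-Water rat, was found in 46 genes. The balance of the 2 directions turned with the scaling. Before the step of the rule that looks at WKY, 92 genes were higher and 62 lower without overlap with TMM-normalized CPM, 101 and 57 with DESeq2 size factors, 127 and 27 with each library's trend on exon length removed, and 28 and 141 with CPM taken outside the mitochondrial genome.

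RNA-seq was carried out on vWAT of 18 male rats in 3 groups of 6. SHR-Water rats drank tap water and SHR-TMAO rats drank water with 1 g/L TMAO, both for 22 weeks from an age of 7 to 8 weeks. Wistar-Kyoto (WKY) rats are the normotensive strain from which the SHR was bred, and they received no TMAO. Both SHR groups share the inbred hypertensive background, so their comparison does not contain the strain, while any comparison with WKY does. The age of the WKY rats was not stated, so strain may not be the only other difference. Rats were kept 3 to a cage, and the cage of each rat was not analysed here. Since TMAO was given in the drinking water, cage may be part of the difference between the SHR groups. The fits treat the 6 rats of a group as independent.

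vWAT is the fat around the abdominal organs. It stores triglycerides in adipocytes, releases fatty acids during fasting and secretes hormones such as leptin and adiponectin, and it also holds immune, vascular and stromal cells. TMAO is formed in the liver from trimethylamine, which gut bacteria make from dietary choline and carnitine. The counts came from bulk tissue, in which a larger number of cells of a type cannot be told apart from more RNA in each cell. The table pairs no identifier with a gene symbol, and 0 of its identifiers matched the reference names, so the genes are given by their position in the rat build Rnor_6.0 (Ensembl release 96), and their functions and the markers of adipose cell types were not analysed here.

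Library totals lay between 10774133 and 18874161 counts, and between 14879416 and 18874161 in the 12 SHRs. Mitochondrial genes took 21.4% ± 5.43 of the counts in SHR-Water, 16.8% ± 3.52 in SHR-TMAO and 14.9% ± 5.12 in WKY (SD, n = 6 each). Gene length weighed differently in different libraries. Taken across genes, Spearman's rho of exon length with the deviation of each gene from its average level was 0.202 ± 0.302 in SHR-Water, -0.171 ± 0.180 in SHR-TMAO and -0.0752 ± 0.232 in WKY, so long genes took a larger share of the counts in SHR-Water than in the other groups.

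The genes are numbered from 1 to 35 by the ratio of the lowest SHR-TMAO value to the highest SHR-Water value, which the rule itself used. Everything said of SHR-TMAO against SHR-Water is therefore a description of the selection, with no test. The ratio of group means, SHR-TMAO over SHR-Water, lay between 1.16 and 2.63 in the 34 genes with a count in SHR-Water, with a median of 1.40. It reached 2 in 5 genes and was under 1.5 in 20. The gap between the groups was narrow in most genes, since in 22 of the 35 the lowest SHR-TMAO rat was less than 5% above the highest SHR-Water rat. In 7 genes, gene 1 left aside for its SHR-Water counts of 0, it was at least 1.1 times as high.

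**Figure D1:**
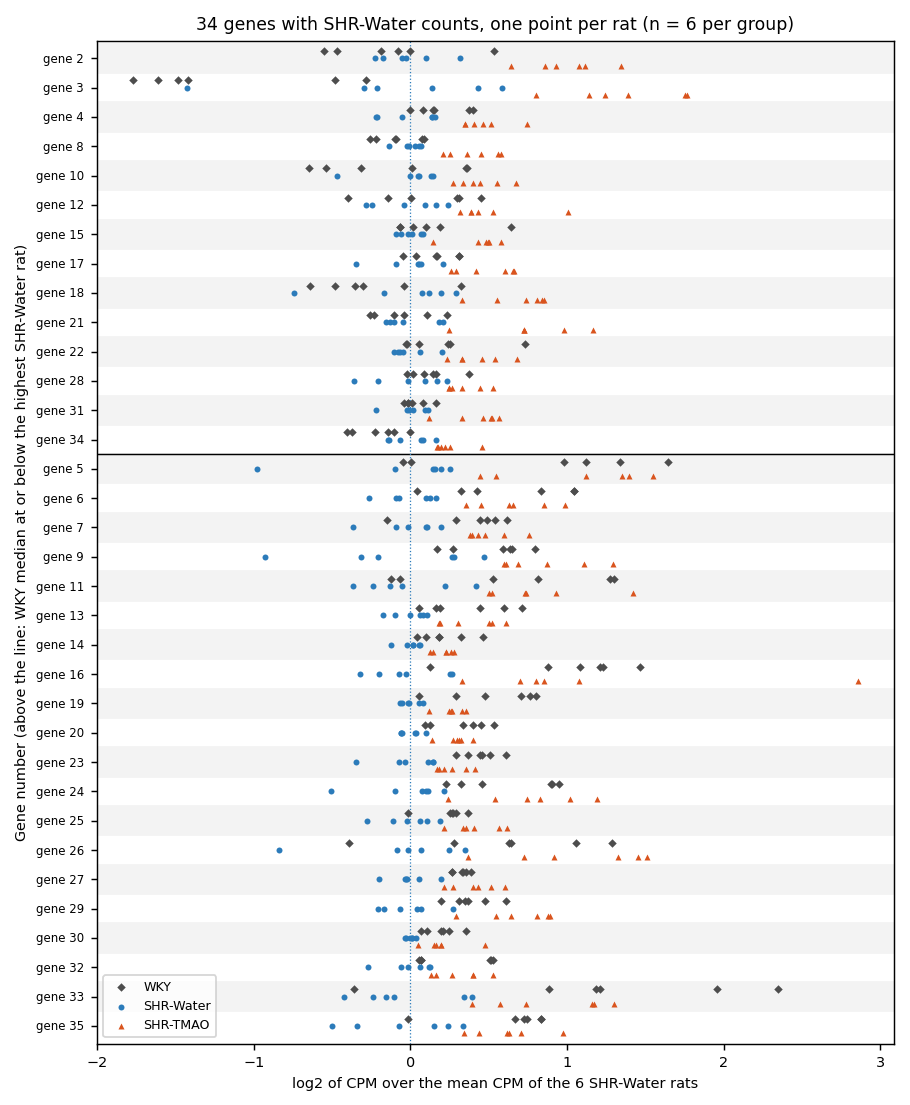
Each point is 1 rat, placed by the log2 of its CPM over the mean CPM of the 6 SHR-Water rats, for the 34 genes with SHR-Water counts (WKY diamonds, SHR-Water circles, SHR-TMAO triangles). Genes above the line have a WKY median at or below the highest SHR-Water rat, genes below it have a WKY median at or above the lowest SHR-TMAO rat, and in genes 3 and 34 every WKY rat lies at or below the highest SHR-Water rat.

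Gene 1 (chr7:125920357-125925430, plus strand, ENSRNOG00000013593) rested on 1 rat. It had 0 counts in all 6 SHR-Water rats, between 1 and 4 counts in 5 SHR-TMAO rats and 4607 counts in SHR-TMAO rat 3, which held 99.7% of the counts of its group. In WKY, 5 rats had 0 counts and WKY rat 6 had 2. Against a floor of 3 counts over the SHR-Water group, SHR-TMAO was at least 1472-fold higher with rat 3. Without it the ratio to this floor was 4.35. That value rests on 1 to 4 counts in each of 5 rats, and the floor does not cover their own counting error. Without rat 3 the mean was 0.0617 CPM over the other 11 SHRs, and the gene would not have been a member.

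Gene 2 (chr1:88652446-88657845, minus strand, ENSRNOG00000048194) had the widest gap among the genes with SHR-Water counts. It lay between 3.09 and 4.51 CPM in SHR-Water (median 3.52), between 5.65 and 9.19 CPM in SHR-TMAO (median 7.27) and between 2.47 and 5.23 CPM in WKY (median 3.31). The SHR-TMAO rats stood alone above both control groups, with a mean 2.02 times that of SHR-Water. Gene 3 (chr16:75873881-75874519), a single exon of 639 bases, had the same order at a lower level. It had a median of 1.53 CPM in SHR-Water (0.580 to 2.34), 3.89 CPM in SHR-TMAO (2.72 to 5.30) and 0.569 CPM in WKY (0.457 to 1.28), and its lowest SHR count was 10.

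Gene 4 (chr8:91464229-91656134) and gene 8 (chr5:29573898-29601748) were the most abundant genes with a gap of at least 1.1 times. Gene 4 had a median of 135 CPM in SHR-Water (112 to 146), 177 CPM in SHR-TMAO (167 to 219.6) and 145 CPM in WKY (131 to 173). Gene 8 had a median of 330.0 CPM in SHR-Water (297 to 342), 434 CPM in SHR-TMAO (378 to 489) and 307 CPM in WKY (273 to 347). In both, the 2 SHR groups were about as tight as WKY, with coefficients of variation between 5.04% and 12.1%, and for gene 8 no WKY rat reached the SHR-TMAO range.

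In genes 5, 6 and 7, WKY overlapped both SHR groups. Gene 5 (chr11:64472072-64472479), a single exon of 408 bases, had a median of 5.36 CPM in SHR-Water (2.45 to 5.76), 11.4 CPM in SHR-TMAO (6.57 to 14.1) and 10.01 CPM in WKY (4.67 to 15.1). Gene 6 (chr10:104521700-104522241), a single exon of 542 bases, had a median of 7.55 CPM in SHR-Water (6.22 to 8.37), 11.7 CPM in SHR-TMAO (9.54 to 14.8) and 11.7 CPM in WKY (7.70 to 15.4). In each of these, 4 of the 6 WKY rats were at or above the lowest SHR-TMAO rat. Gene 7 (chr2:187415262-187424045) had the same arrangement, with 4.62 CPM in SHR-Water (3.48 to 5.13), 6.15 CPM in SHR-TMAO (5.83 to 7.58) and 6.20 CPM in WKY (4.03 to 6.87).

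**Figure D2:**
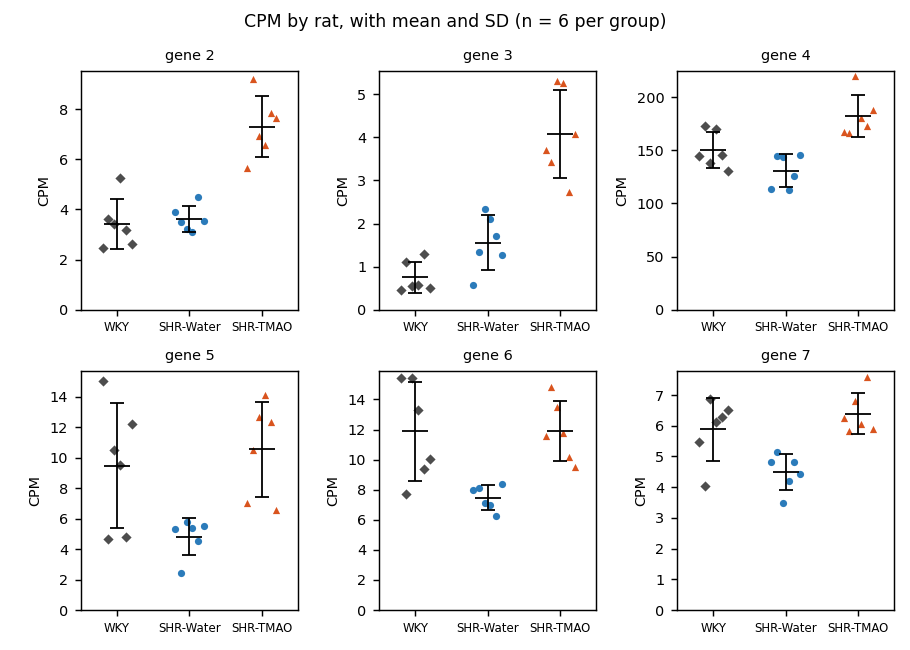
CPM in each rat (points) with the group mean and SD (bars) for genes 2 to 7, the 6 genes with the widest gap among those with SHR-Water counts. WKY rats lie with SHR-Water in genes 2 and 3, while in genes 5, 6 and 7 the WKY range overlaps both SHR groups.

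The highest levels among the 35 were found for gene 22 (chr4:172119331-172134607) and gene 19 (chr16:81689335-81714419). Gene 22 had a median of 1846 CPM in SHR-Water (1785 to 2209), 2523 CPM in SHR-TMAO (2255 to 3075) and 2132 CPM in WKY (1879.8 to 3181). Gene 19 had a median of 739 CPM in SHR-Water (713 to 789), 893 CPM in SHR-TMAO (810.0 to 954) and 1126 CPM in WKY (773 to 1300.2), so that WKY was the highest group and 5 of its 6 rats reached the SHR-TMAO range. Per kilobase of exon, the mean level in SHR-Water was 2017 CPM for gene 22, 552 CPM for gene 26 and 443 CPM for gene 31, against 185 CPM for gene 19 and 0.274 CPM for gene 16.

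Larger ratios belonged to scarcer genes. The rule sets part of this, since genes with a wide spread between rats pass without overlap only at a large ratio. The median ratio of means was 1.73 among the 15 genes with a mean under 15 CPM and 1.34 among the 12 genes over 100 CPM. The largest ratio, 2.63, belonged to gene 16 (chr3:147476580-147487170), with 0.611 CPM in SHR-Water (0.507 to 0.762), 1.12 CPM in SHR-TMAO (0.795 to 4.59) and 1.40 CPM in WKY (0.690 to 1.74). Its highest value came from SHR-TMAO rat 3, the same rat as in gene 1, and without that rat its mean over the SHRs fell under 1 CPM and its log2 ratio of means went from 1.40 to 0.77. Gene 3 then had the largest, 1.30. Gene 26 (chr10:70109549-70109623), a single exon of 75 bases that overlaps a gene on the other strand, had a ratio of 2.15, with 42.2 CPM in SHR-Water (23.2 to 52.7), 91.1 CPM in SHR-TMAO (53.5 to 118) and 64.4 CPM in WKY (31.5 to 101).

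The position of WKY differed among the genes. The WKY median lay at or below the highest SHR-Water rat in 15 genes and at or above the lowest SHR-TMAO rat in 20, and in 0 genes did it fall between the SHR groups, which the narrow gaps left little room for. The count of 20 was 16 with TMM-normalized CPM and 12 with CPM taken outside the mitochondrial genome. A median at or below the highest SHR-Water rat was counted on that side first. Under these scalings only 24 and 19 of the 35 genes kept no overlap, so the lower counts do not show the place of WKY alone. By means, WKY lay between the SHR groups in 22 genes, below both in 7 and above both in 6. The WKY mean was above that of SHR-Water in 80% of the 35 genes and in 44.4% of the 11970 expressed genes, and below that of SHR-TMAO in 82.9% and 43.8%. Since the rule picked genes with low SHR-Water and high SHR-TMAO values, these libraries fix part of both shares.

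All 6 WKY rats lay below the lowest SHR-TMAO rat in 6 genes, numbers 2, 3, 8, 18, 21 and 34, where WKY and SHR-Water formed the low side. Such a separation was found in 1.48% of expressed genes. Gene 18 (chr5:14983371-14984364), a single exon of 994 bases, had 8.61 CPM in SHR-Water (4.81 to 9.84), 13.8 CPM in SHR-TMAO (10.1 to 14.5) and 6.41 CPM in WKY (5.17 to 10.1). Gene 21 (chr7:65005791-65008823) had 5.17 CPM in SHR-Water (4.89 to 6.29), 9.01 CPM in SHR-TMAO (6.45 to 12.2) and 5.18 CPM in WKY (4.57 to 6.42). Gene 34 (chr2:205525204-205552991) had 288 CPM in SHR-Water (260.5 to 322), 332 CPM in SHR-TMAO (323 to 395) and 253 CPM in WKY (217 to 287), with the WKY median under both SHR medians.

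All 6 WKY rats lay above the highest SHR-Water rat in 4 genes, numbers 23, 24, 27 and 30, where SHR-Water alone was low. This separation was found in 2.46% of expressed genes. Again the choice of the 35 genes, here for low SHR-Water values, sets part of the distance from this share. Gene 23 (chr18:70974885-70983360) had 92.6 CPM in SHR-Water (70.7 to 99.6), 106 CPM in SHR-TMAO (101 to 119.7) and 123 CPM in WKY (110.1 to 137). Gene 27 (chr3:129866545-129884810) had 33.0 CPM in SHR-Water (29.2 to 38.6), 44.8 CPM in SHR-TMAO (39.0 to 51.1) and 42.3 CPM in WKY (40.4 to 44.0), the last with the smallest coefficient of variation of the WKY group among the 35 genes, 3.41%. Gene 30 (chr4:117235023-117252265) had 117 CPM in SHR-Water (114 to 119), 132 CPM in SHR-TMAO (120.1 to 162) and 134 CPM in WKY (122 to 148), and gene 24 (chr2:210115784-210116038) had 7.37 CPM (4.89 to 8.05), 11.99 CPM (8.20 to 15.9) and 11.2 CPM (8.12 to 13.4) in the same order. The WKY range overlapped both SHR groups in the other 25 genes.

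Differences from WKY were tested with edgeR's quasi-likelihood test on all genes that passed a filter on low counts, with Benjamini-Hochberg adjustment. A call needed an adjusted p under 0.05 together with a change of 1 or more on the log2 scale, up or down. Of the 35 genes, 34 passed the filter, the exception being gene 1. Both comparisons share the WKY rats, and each uses SHR libraries that chose the genes, so their counts are not independent evidence. Between SHR-TMAO and WKY, 2 of the 34 genes were called higher, against 1.45% of the 12833 genes tested, and 0 were called lower, against 2.17%. Those were gene 3, with a log2 fold change of 2.45 ± 0.30 (SE, adjusted p = 0.000216), and gene 2, with 1.12 ± 0.23 (adjusted p = 0.0104).

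With the adjusted p alone, 7 of the 34 genes were higher in SHR-TMAO than in WKY, against 3.5% of all genes tested. Beside genes 2 and 3 these were gene 18 (log2 fold change 0.95 ± 0.16, adjusted p = 0.00279), gene 21 (0.86 ± 0.18, adjusted p = 0.00973), gene 34 (0.49 ± 0.11, adjusted p = 0.0182), gene 8 (0.52 ± 0.12, adjusted p = 0.0200) and gene 31 (0.43 ± 0.12, adjusted p = 0.0474). Gene 8 lost the call without WKY rat 1 (adjusted p = 0.0507). The first 6 of these 7 genes were the same as those in which no WKY rat reached the SHR-TMAO range. Both readings come from the same rats, so their match is no separate evidence. In gene 31 (chr8:62298358-62309765), 1 WKY rat reached that range, and the call was lost in 11 of 19 alternative fits, with adjusted p up to 0.10.

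Between SHR-Water and WKY, 1 of the 34 genes was called lower, against 2.13% of the 13017 genes tested, and 0 were called higher, against 1.29%. This was gene 33 (chr9:50526811-50548046), with a log2 fold change of -1.49 ± 0.38 (SE, adjusted p = 0.0331). It had 2.05 CPM in SHR-Water (1.67 to 2.95), 4.38 CPM in SHR-TMAO (2.96 to 5.54) and 5.16 CPM in WKY (1.75 to 11.4). WKY ranged from inside the SHR-Water range to more than any SHR, and the call was lost on leaving out any one of 9 of the 12 rats in the fit, which were WKY rats 1, 3, 4 and 6 and every SHR-Water rat but rat 1.

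With the adjusted p alone, 3 genes were lower in SHR-Water than in WKY, against 3.82% of all genes tested. The others were gene 23 (log2 fold change -0.52 ± 0.12, adjusted p = 0.0202) and gene 27 (-0.38 ± 0.10, adjusted p = 0.0466), in both of which all WKY rats lay above the highest SHR-Water rat. Gene 27 lost the call in 13 of 19 alternative fits, and gene 23 without SHR-Water rat 4 (adjusted p = 0.0573). The fitted log2 fold change of SHR-Water over WKY was positive in 6 of the 34 genes, with a median of -0.32, and that of SHR-TMAO over WKY was positive in 30, with a median of 0.25, while 49.6% and 47.4% of all genes tested were positive.

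The contrast that chose the genes had no call with edgeR, but it had calls with DESeq2. With edgeR, 0 of 12852 genes passed between SHR-TMAO and SHR-Water, or 0% in the higher direction, and the lowest adjusted p, 0.0834, was shared by members of the 35. An unadjusted p under 0.05 was reached by 3212 genes, among them all 34 members tested, whose place there follows from the rule. DESeq2, which the study used in another version, called 405 genes at the same thresholds. Of these, 109 were higher in SHR-TMAO (0.796% of 13696 tested), with 6 members among them, and 296 were lower. The lowest adjusted p of DESeq2, 7.14e-07, belonged to a member, which the rule had chosen on the same values. Leaving out SHR-Water rat 1 raised edgeR's count from 0 to 685 of 13025 genes, 179 higher and 506 lower in SHR-TMAO. Leaving out SHR-TMAO rat 1 raised it to 442 of 13017 genes, 151 higher and 291 lower. The higher genes held 8 members in the first fit and 6 in the second, and the lower genes held 0 in both.

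Gene length was not part of the rule, yet the 35 genes were short. Their median exon length was 1026 bases against 2353 in expressed genes, 48.6% were under 1000 bases against 11.3%, and 20% had a single exon against 4.80%. Among expressed genes under 1000 bases, 1.25% had every SHR-TMAO rat above every SHR-Water rat and 0.147% the reverse, while at 3000 bases or more the shares were 0.0708% and 0.685%. Over all expressed genes the median log2 ratio of group means was 0.27 in the short class and -0.31 in the long class. Exon length thus moved with the direction of the whole SHR-TMAO and SHR-Water comparison, in the order of the library trends given above, and its part in each gene's difference was not tested.

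**Figure D3:**
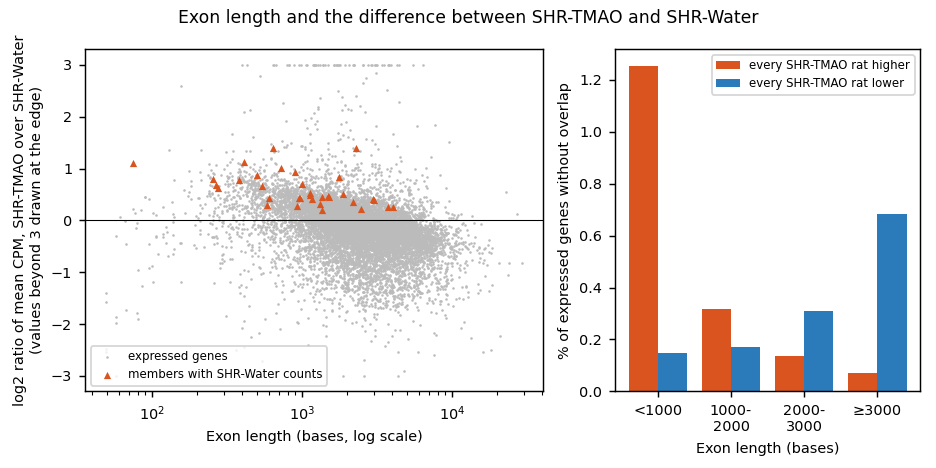
The left panel plots the log2 ratio of mean CPM, SHR-TMAO over SHR-Water, against exon length (log scale) for expressed genes (grey) and for the members with SHR-Water counts (triangles). The right panel gives the percentage of expressed genes in each length class in which every SHR-TMAO rat was above (orange) or below (blue) every SHR-Water rat, from 1.25% and 0.147% in the shortest to 0.0708% and 0.685% in the longest class.

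Removing each library's trend on exon length left 20 of the 35 genes without overlap, and CPM taken over counts outside the mitochondrial genome left 19. TMM-normalized CPM left 24 and DESeq2 size factors 23. There were 15 genes without overlap under all 5 scalings, the CPM of the rule included. These were genes 1 to 5, 7, 8, 10, 17, 18, 22, 26, 27, 29 and 33, while genes 11, 13, 14, 16, 20, 25, 30 and 32 had no overlap only with the CPM of the rule. Gene 1 could not overlap under a scaling by library factors, since its SHR-Water counts were all 0. The direction of the group means did not turn under any scaling in the 34 genes with SHR-Water counts, and the median log2 ratio of the members stayed between 0.40 and 0.58. That of all expressed genes moved between -0.20 and 0.03.

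Single rats set the edges of the rule. SHR-TMAO rat 1 was the lowest of its group in 18 of the 35 genes, and its library had the only positive length trend among the SHR-TMAO rats (rho 0.120). SHR-Water rats 3 and 6 were the highest of their group in 13 and 12 genes. SHR-TMAO rats 3 and 4 were the highest of theirs in 17 and 13. Averaged over the 35 genes as z scores of log2(CPM + 0.5) across the 18 rats, the level lay between -1.06 and -0.535 in SHR-Water, between 0.153 and 1.40 in SHR-TMAO and between -0.246 and 0.512 in WKY. The separation of the SHR groups in this average was fixed by the rule, and the WKY rats, whose values removed no gene under the rule, filled the space between them and entered the SHR-TMAO range.

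**Figure D4:**
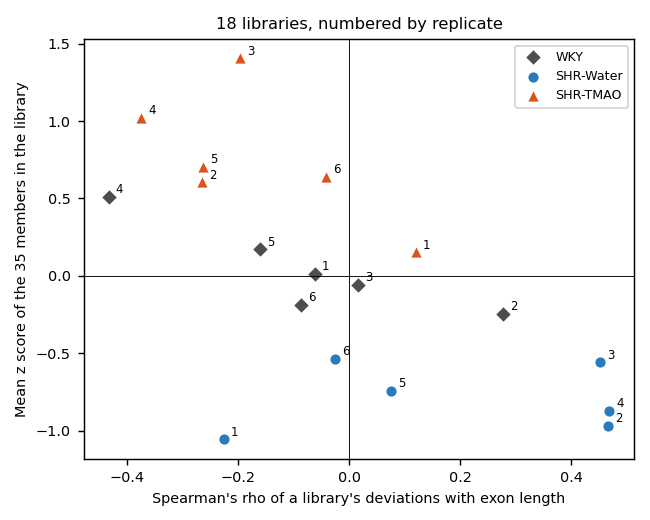
Each point is 1 library, numbered by replicate, with Spearman's rho between exon length and its deviations on the x axis and the mean z score of the 35 genes on the y axis. SHR-TMAO rat 1, at 0.153, is the lowest of its group, and WKY rats 4 and 2, with the lowest and highest rho of WKY, also have its highest and lowest score, 0.512 and -0.246.

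In WKY, the level of 27 of the 35 genes fell as the library's length trend rose, with a median Pearson's r of -0.36 over 6 rats. In SHR-TMAO this was so in 32 of 35 genes (median -0.38) and in SHR-Water in 19 of 34 (median -0.098). These values describe points that share a library. The length trend was itself computed from gene deviations over exon length, and the 35 genes were short beside expressed genes. Negative values are therefore partly built in. The same counts over all expressed genes were not computed, so these are no trait particular to the 35 genes. Between pairs of the 35 genes, the median r over the 6 SHR-TMAO rats was 0.43, against 0.054 for all pairs of expressed genes. The rule chose the genes on these same values, so this describes the selection. The same holds for SHR-Water, with 0.12 and 0.28. In WKY the values were 0.10 and 0.066.

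The 35 genes lay on 15 chromosomes, 20 of them on the plus strand. Genes 7 and 13, on chromosome 2, were the only pair within 2 Mb of each other, at 187.4 and 188.4 Mb, and gene 13 (chr2:188392858-188413219) had 79.9 CPM in SHR-Water (69.1 to 84.3), 104 CPM in SHR-TMAO (88.5 to 119) and 97.7 CPM in WKY (81.3 to 128). Genes 13, 19 and 23 overlap another gene on their own strand, and reads falling on both could not be assigned to one, so their levels are uncertain. The same holds for any of the 7 single-exon genes that has a near-identical copy elsewhere, which was not analysed here.

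At the edge of the rule, genes 35, 34 and 33 passed by ratios of lowest SHR-TMAO to highest SHR-Water of 1.00350, 1.00355 and 1.00405. Gene 35 (chr1:64172540-64175099) had 55.1 CPM in SHR-Water (37.9 to 67.5), 82.5 CPM in SHR-TMAO (67.7 to 105) and 89.1 CPM in WKY (53.0 to 95.5). The 3 genes just outside had ratios of 0.999 (chr6:26680598-26685235), 0.998 (chr17:21580087-21591203) and 0.996 (chr1:226947105-226958144). By level, gene 16 was the scarcest member at a mean of 1.15 CPM over the 12 SHRs. The gene nearest below the limit (chr1:86972244-86983514) had a mean of 0.834 CPM and no overlap, and 7 such genes in all lay under 1 CPM.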

How the data were processed

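RNA was isolated from vWAT with TRIzol and libraries were made with SMART technology and sequenced on a NovaSeq. Per the submitters' processing notes, the tools were cutadapt 2.5, HISAT2 2.1.0, featureCounts 1.6.3 and DESeq2. The deposited values are whole-number counts per gene over merged exons (Ensembl release 96, Rnor_6.0), counted by the authors on the reverse strand, and were not normalized. The exon length column deposited beside them served for CPM per kilobase and the length trends. Fold ratios were computed from the deposited counts. Of the sample columns, 0 were outside the labels.

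CPM, the rule, WKY positions and z scores were computed in Python 3.11.15 (numpy 2.4.6, pandas 2.3.3). All genes were fitted with edgeR 4.0.16 in R 4.3.3 (TMM, filterByExpr, quasi-likelihood test on the 2 groups compared, Benjamini-Hochberg adjustment), and DESeq2 1.42.0 was an alternative. Only the edgeR and DESeq2 fits were tested on simulated counts. These had no length trend and larger changes than the ratios of SHR-TMAO over SHR-Water in the 34 genes with SHR-Water counts. Other alternatives were scalings, count filters, thresholds, a gene length offset, a replicate block and leaving out each rat. A pseudocount of 0.5 CPM was used on the log2 scale for z scores, correlations and length trends. The members, the lists and the tests were chosen with earlier results of these data known. The genes named are those with the largest gap, level or ratio of means, those at the edges of the rule and those called against WKY. Gene lists and cell type markers were not used here because they need gene symbols. Library totals limit the precision for genes with few counts, and floors cover only the counting error of a group with 0 counts.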

Additional observations from a re-analysis of the deposited data

Results flagged for a closer look

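In 104 groups of 6 rats (the 3 groups for each gene, leaving out the SHR-Water group of gene 1, whose counts were all 0), 11 held a rat whose gap to its neighbour, as a share of the range of the group, exceeded Dixon's 95% critical value. Chance alone flags about 1 in 20 where values are normally distributed and no rule chose them. The rule chose the SHR values, and in SHR-TMAO it left less room for a low rat than for a high one. That rate therefore does not hold for the SHR groups. SHR-TMAO rat 3 accounted for 5 of the 11 flagged groups. It had 274.6 CPM in gene 1 against at most 0.213 in the other rats of its group, 4.59 CPM in gene 16 against at most 1.33, 10.5 CPM in gene 12 against at most 7.53, 162 CPM in gene 30 against at most 133 and 395 CPM in gene 34 against at most 342. In each of these it was the high rat of its group.

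WKY rat 4 was high in gene 15, with 239 CPM against at most 174, and in gene 22, with 3181 CPM against at most 2287. WKY rat 2 was low in gene 35, with 53.0 CPM against at least 85.2, and WKY rat 5 was low in gene 25, with 10.5 CPM against at least 12.6. WKY rat 6 had 0.128 CPM in gene 1, which was 2 counts, against 0 in the others. With every other rat at 0, any count would have been flagged. SHR-Water rat 1 was low in gene 10, with 5.91 CPM against at least 8.19.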

How the results depend on the processing

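The number of genes that met the rule was 91 with TMM-normalized CPM, 100 with DESeq2 size factors and 125 with the gene length trend removed, against 35, and on leaving out 1 rat it ranged from 35 to 384. It was 384 without SHR-TMAO rat 1, 115 without SHR-Water rat 6, 71 without SHR-Water rat 1 or 3 and 65 without SHR-TMAO rat 2. Leaving out a rat cannot end the separation of a member, so these counts say nothing of its stability. Without SHR-TMAO rat 3, 2 members fell below the CPM limit. The genes called between SHR-TMAO and SHR-Water numbered 405 with DESeq2, 1 with all 18 samples in the fit and 0 to 685 without 1 rat (2 without SHR-TMAO rat 2). The members called between SHR-Water and WKY numbered 3 of 34 without the fold limit (798 of all 13017 genes tested) and 3 with DESeq2 (865 of 15922). Without 1 rat they numbered 0 to 3, with 3 without WKY rat 2 (1278 of 13138) and 2 without SHR-Water rat 1 (725 of 13185). In the main fit 445 of all genes were called, so these rises are not read as a result about the members. The members called between SHR-TMAO and WKY numbered 7 without the fold limit (995 of all 12833 genes) and 2 to 3 without 1 rat (363 to 646 of all genes). The WKY median was above the highest SHR-Water value and at or above the lowest SHR-TMAO value in 12 genes when mitochondrial counts were left out, against 20. Apart from the rats named, the cause was not tested. No single gene's difference turned its direction under the alternatives run. For SHR-TMAO over SHR-Water, leaving out a rat could not turn the ratio of means, since the groups do not overlap in a member. The balance of genes higher and lower without overlap did turn with the scaling.

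No label ties same-numbered rats to each other, and no pair of groups had every correlation over 0.1. Whether they share more than a number cannot be decided from so few correlations. The correlations lay between -0.397 and -0.0241 for SHR-Water and SHR-TMAO, between -0.239 and 0.285 for WKY and SHR-TMAO and between -0.311 and 0.553 for WKY and SHR-Water, where 5 of 6 were over 0.1 and 4 rats correlated best with their own number. With the replicate number as a block, 0 genes were called between SHR-TMAO and SHR-Water (1864 at an unadjusted p under 0.05). In the comparisons of SHR-Water and SHR-TMAO with WKY, 1 and 2 members were called, beside 591 of 13017 and 341 of 12833 genes over all. By the adjusted p alone, the block lost gene 23 (0.0508) and gene 27 (0.0875) in the former and gene 34 (0.0537) and gene 31 (0.0833) in the latter.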
